A study of Mus musculus with 19 samples.

Results

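The genes described here are 41 nuclear receptors and coregulators, the hormone- and metabolite-sensing transcription factors of the liver together with proteins that receptors recruit to activate or silence genes. They were taken by name, leaving out the REV-ERB and ROR receptors of the circadian clock, and each was followed through the probe set with its highest mean. Of the 41, 39 had a probe set annotated to that gene alone, among 22180 genes in all. Nr1h2 (LXR beta) and Ncor1 had none in the annotation used here and were not analysed here. The measurements come from whole livers of 19 mice, 1 array each, in 6 groups of 3 genotype codes and 2 diets. The groups were KO on a high-fat diet (HFD, 3 arrays), KO on a normal diet (ND, 3), TG on HFD (4), TG on ND (3), WT on HFD (3) and WT on ND (3). All mice were 2 to 3 months old and had eaten their diet for 4 weeks. The title of the series names the secreted protein Kielin/chordin-like protein, Kcp, and its design text says that every genotype and diet was set against the others. What the codes KO and TG stand for is not written out in the labels, and neither the deleted part of the gene, the promoter of a transgene, the sex, the strain nor the hour of harvest is given in the sources used here.

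Nuclear receptors bind DNA as monomers, homodimers or heterodimers with a retinoid X receptor, and a ligand in their pocket decides which coregulators they hold. In the liver PPAR alpha drives fat oxidation, FXR and SHP limit bile acid synthesis, CAR and PXR induce drug-metabolising enzymes, and HNF4 alpha keeps hepatocyte identity. Their activity depends on ligands and partners as well as on how much of the receptor is made, so an mRNA level is not a measure of activity.

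Values are log2 signals as deposited, and differences are between group means with their standard error (SE) from 1 limma model of all 19 arrays. A gene is said to have changed where its p-value, adjusted by the Benjamini-Hochberg method over all 22180 genes, was under 0.05. Replicates differ by animal number only, and p-values measure the spread between these samples. In whole liver, fewer cells of a type and less RNA per cell cannot be told apart.

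Several features of the whole data set bear on these genes. The mean of 8 hepatocyte markers lay between 9.68 and 10.15 on every array, and the adipocyte markers Adipoq and Lep had medians of 0.54 and 0.3, while Plin1 ran between 0.75 and 2.06. Kcp read 5.35 to 5.81 on the TG arrays, against 1.64 to 2.82 on all others, and its KO values of 1.64 to 2.3 do not by themselves check the KO label. The clock score, 9 evening-peaking clock genes less 5 morning-peaking ones by their mean log2 values, averaged 2.18 ± 0.19 in KO HFD, 1.67 ± 0.19 in KO ND, 1.84 ± 0.31 in TG HFD and −1.19 ± 0.42 in TG ND (SD, n = 3, 4 for TG HFD). It was 1.97 ± 0.14 in WT HFD and −0.60 ± 0.93 in WT ND (SD, n = 3 each). Kupffer cell and macrophage markers averaged 5.17 ± 0.34 in KO HFD, 4.68 ± 0.31 in KO ND, 6.2 ± 0.25 in TG HFD and 6.26 ± 0.27 in TG ND, against 4.68 ± 0.25 in WT HFD and 4.58 ± 0.07 in WT ND, and all 10 of these markers were higher on average in TG than in WT on both diets. Hour of harvest, cohort and group cannot be told apart in this design, and the part that the clock score and the macrophage markers had in the results below was not tested beyond the values given beside them. Of the clock score's variance 92.9% lies between the groups. A model with the score as a covariate therefore cannot separate score from group, and its results are given as values only.

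**Figure D1:**
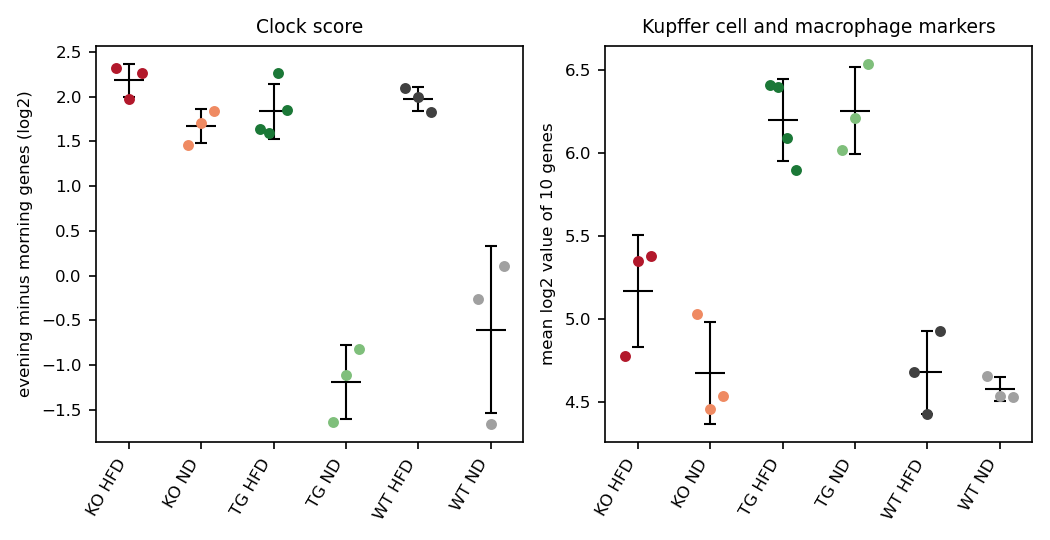
Clock score (left, evening minus morning clock genes, log2) and mean log2 value of 10 Kupffer cell and macrophage markers (right) for each array, by group, with group mean and SD as bars. The TG ND and WT ND arrays have the lowest clock scores, and both TG groups lie above the others in macrophage markers.

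Across the 6 groups, 10 of the 39 measured members differed by the F test of the limma model, 25.6%, where 8.7% of all genes did. These were the receptors Ppara, Pparg, Nr1i2, Nr1i3, Nr0b2, Nr2f2, Esr1 and Thra and the coactivators Ppargc1a and Ppargc1b. The widest range of group means was 1.89, for Pparg, and the narrowest among all 39 was 0.15, for Nr1h3 (log2). The other 29 members had ranges of group means with a median of 0.41 (log2). Of the 39, 10 were dim, with a mean log2 value below 2, where background compresses differences: Nr2f1, Nr4a1, Nr4a2, Nr4a3, Hnf4g, Rxrg, Rarb, Rarg, Thra and Vdr. Among all genes 56.5% were dim, so shares of all genes called, here and below, come from a dimmer set than the members. The higher share of members is therefore not read as a property of these receptors.

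**Figure D2:**
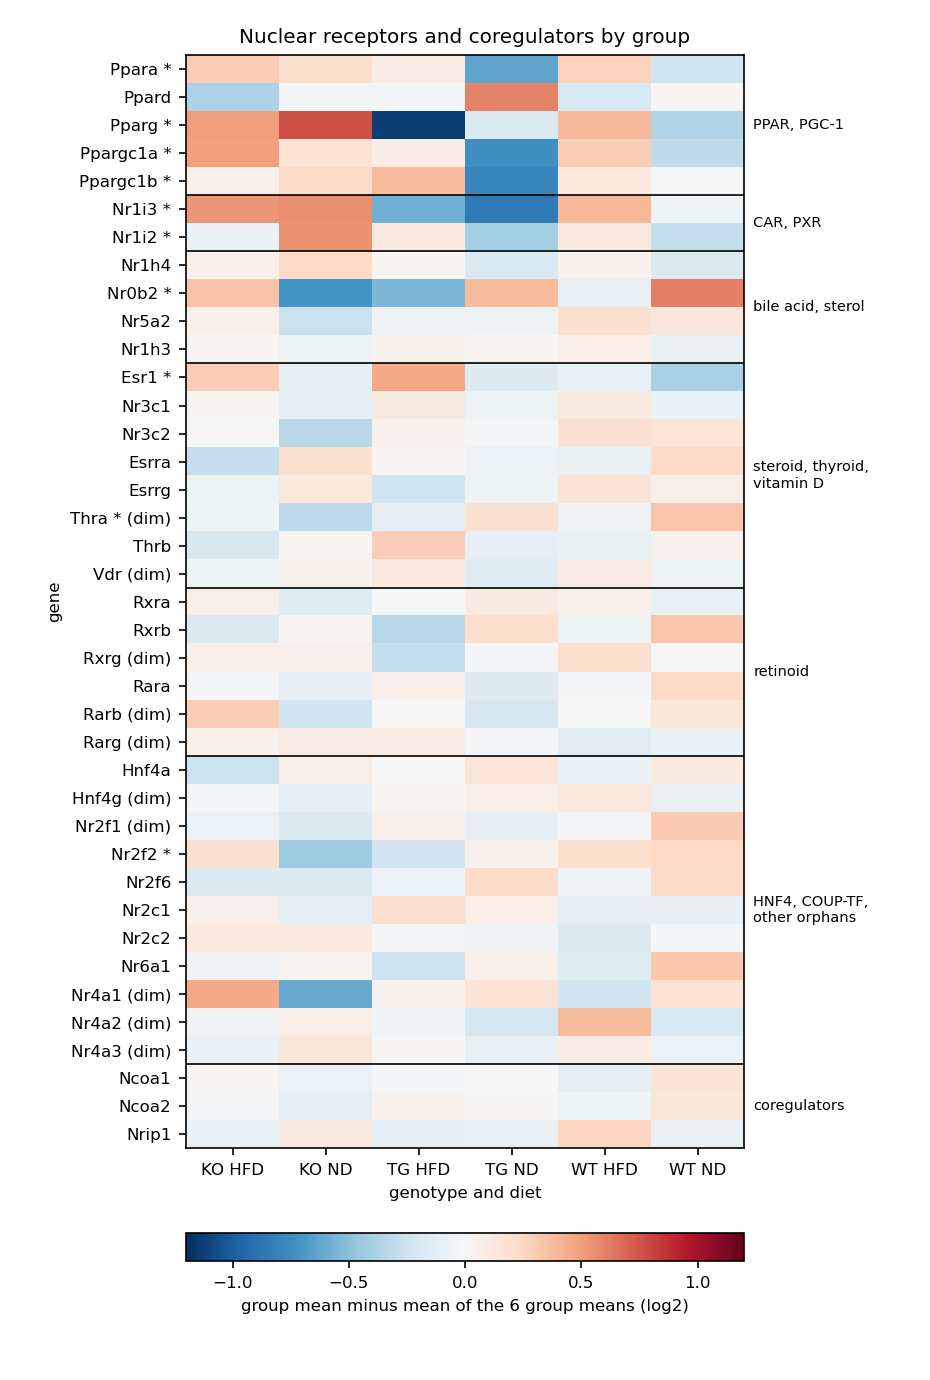
Group means of the 39 measured members, each as the difference from that gene's mean over the 6 groups (log2, colour scale), for the 6 groups in columns. Pparg stands out as low in TG HFD, Ppargc1b as low in TG ND, and Nr0b2 and Nr2f2 as low in KO ND.

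By comparison, the members that changed were few. KO against WT on ND moved 4 of 39 (10.3% of members, 2.98% of all genes): Nr1i2 rose (1.38% of all genes did), and Nr0b2, Nr2f2 and Thra fell (1.6% of all genes did). TG against WT on HFD moved 1 of 39 (3.57% of all genes), Pparg, which fell (1.88% of all genes did). HFD against ND in TG moved 1 of 39 (0.906% of all genes), Ppargc1b, which rose (0.397% of all genes did). In limma no member passed in HFD against ND in KO or in WT, in KO against WT on HFD or in TG against WT on ND, where 0.803%, 1.32%, 0.338% and 1.3% of all genes were called. At an unadjusted p under 0.05 the diet effect in KO and that in WT each had 9 of 39 members, 23.1%, against 11.3% of all genes in KO and 11.2% in WT. KO against WT on HFD had 2 of 39, 5.13%, against 8.32% of all genes, and TG against WT on ND had 3 of 39, 7.69%, against 9.97% of all genes. The diet effect in KO minus that in WT moved no member in limma (0.825% of all genes were called), nor did the diet effect in TG minus that in WT (0.221%). At an unadjusted p under 0.05 these had 9 of 39 members, 23.1%, against 10.9% of all genes, and 4 of 39, 10.3%, against 7.87%.

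A further 3 comparisons were added after the first results were seen, and they share arrays with those above. KO against TG on ND moved 5 of 39, all upward (4.2% of all genes changed, 1.71% upward): Ppara, Nr1i2, Nr1i3, Ppargc1a and Ppargc1b. KO against TG on HFD moved 2 of 39, Pparg and Nr1i3, both upward (2.35% of all genes changed, 1.46% upward). HFD against ND as the mean of the 3 genotypes moved 1 of 39, Ppargc1a, upward (1.75% of all genes changed, 0.933% upward). Members' median differences in the 12 comparisons ran between −0.12 and 0.05, against a median of 0 for all genes. Of the 13 changes between pairs of groups, 10 were in comparisons whose clock scores did not overlap, and the other 3, of Pparg and Nr1i3 on HFD, were in comparisons whose clock scores overlapped. The share of all genes that changed ran from 0.803% to 4.2% in the comparisons without overlap. It ran from 0.338% to 3.57% in those with overlap.

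**Figure D3:**
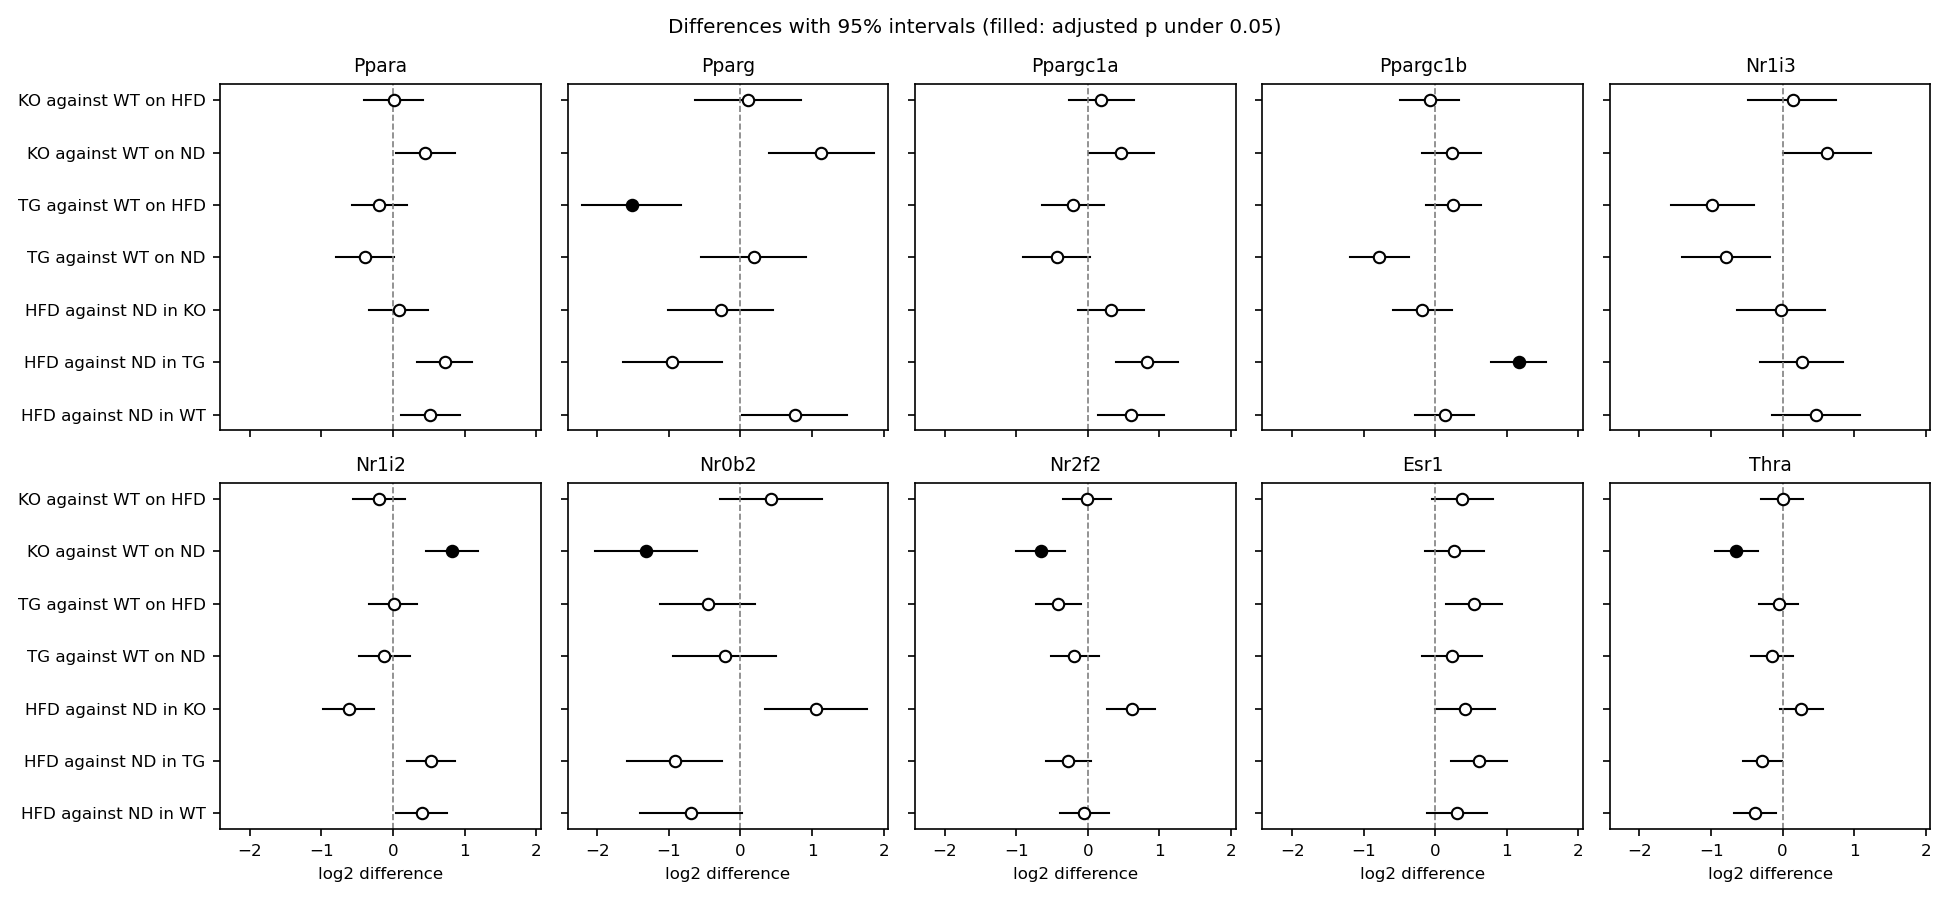
Log2 differences (horizontal axis) with 95% intervals of the 10 members that differed among the groups, for the 7 planned comparisons between pairs of groups (KO against TG is not drawn), filled where the adjusted p was under 0.05. Of the filled marks drawn, those farthest from 0 belong to Pparg in TG against WT on HFD and Nr0b2 in KO against WT on ND.

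Pparg, the receptor that drives fat storage in adipocytes and that fatty livers also express, was lowest in TG livers on HFD. It read 2.94, 3.27, 3.65 and 4.03 in TG HFD, against 5.21, 4.19 and 5.57 in WT HFD. The groups did not overlap, although the highest TG array and the lowest WT array lay close together. The difference was −1.52 (SE 0.33, 95% interval −2.21 to −0.83, adjusted p = 0.0128), which is 0.349 of the WT level. It did not pass without WT HFD replicate 1 (adjusted p = 0.0728) or without WT HFD replicate 3 (adjusted p = 0.0865), nor when the arrays of these groups were fitted alone (adjusted p = 0.088). Without WT HFD replicate 1 and TG HFD replicate 2 together, the arrays least correlated with the rest, it did not pass either (adjusted p = 0.15). The clock scores of these groups overlapped, with means of 1.84 in TG HFD and 1.97 in WT HFD. Pparg passed when the score was added to the model (adjusted p = 0.0156). Scores this close could move the difference little, so nothing is concluded from that. The TG HFD arrays also held more macrophage marker signal. Markers of B and plasma cells averaged 2.63 ± 0.48 in TG HFD (n = 4), against 1.6 ± 0.09 in WT HFD (n = 3), as SD. TG HFD replicate 2 stood apart, with B and plasma cell markers at 3.34 and neutrophil markers at 2.13, against at most 1.04 for neutrophil markers on the other arrays. The part of these cells in the result was not tested.

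In KO livers Pparg read 4.89, 5.57 and 4.83 on HFD, and 5.82, 5.24 and 5.04 on ND. In TG ND it read 4.61, 4.58 and 4.09, and in WT ND 3.65, 4.48 and 4.58. KO ND lay above every WT ND array, by 1.13 (SE 0.35), without passing the test (adjusted p = 0.103). On HFD the KO arrays lay above every TG array by a mean of 1.62 (SE 0.33, adjusted p = 0.0108), a call lost without KO HFD replicate 2 (adjusted p = 0.0796). HFD against ND gave −0.95 in TG and 0.76 in WT, neither of which passed (adjusted p = 0.255 and 0.425). The difference between these diet effects was −1.71 (SE 0.48) and did not pass either (adjusted p = 0.263).

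The promoter windows of Pparg are shown because they alone, of the windows searched, hold AGGTCA, the hexamer that many nuclear receptors bind. The search took the 250 bases before a start in RefSeq (GRCm38.p6) for 8 of the 10 differing members, in 11 windows. Members' windows were filtered by chromosome and strand, while the shares over all windows were not. The remaining differing members were not searched. The sequences, on the + strand, lie at chr6:115360894-115361143 and chr6:115362099-115362348, and capitals mark AGGTCA, searched on both strands as AGGTCA or TGACCT.
Pparg, upstream start: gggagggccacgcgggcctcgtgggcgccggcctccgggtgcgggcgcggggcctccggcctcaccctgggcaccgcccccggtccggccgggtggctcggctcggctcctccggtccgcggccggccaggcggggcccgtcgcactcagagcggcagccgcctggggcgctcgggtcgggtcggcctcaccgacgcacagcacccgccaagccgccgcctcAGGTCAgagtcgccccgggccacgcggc
Pparg, downstream start: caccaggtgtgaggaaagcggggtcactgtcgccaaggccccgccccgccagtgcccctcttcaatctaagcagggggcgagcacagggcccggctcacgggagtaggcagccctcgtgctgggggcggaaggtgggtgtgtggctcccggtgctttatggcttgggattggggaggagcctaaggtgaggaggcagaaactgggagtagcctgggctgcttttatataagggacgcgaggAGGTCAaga
The hexamer begins 28 bases before the start in the first and 9 bases before it in the second. Of 32851 such windows of mouse genes, 14% hold it, so that a match is common and is a description of the letters only.

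Known PPAR gamma targets of fatty liver, a list of 11 genes of which 10 were measured, gave 1 higher and 4 lower in TG against WT on HFD, with a median difference of −1.58 against 0 for all genes. In that comparison 3.57% of all genes changed, and 1.88% fell. Cd36, a fatty acid transporter, read 5.9, 7.23, 6.45 and 6.55 in TG HFD, against 9.11, 8.39 and 9.02 in WT HFD, and fell by 2.31 (SE 0.24, adjusted p = 3.17e-05). Mogat1, a triglyceride-synthesis enzyme, read 0.83, 0.83, 0.84 and 1.05 in TG HFD, against 3.64, 2.7 and 3.62 in WT HFD, and fell by 2.43 (SE 0.33, adjusted p = 0.000355), a size that its dim TG HFD readings limit. Fitm1, which helps to form lipid droplets, fell by 2.40 (SE 0.37, adjusted p = 0.00106). It read 6.75, 5.06, 6.49 and 6.72 in TG HFD, lowest on replicate 2, against 8.9, 8.09 and 8.97 in WT HFD. Leaving out an array was not tested for the target genes. The gene that rose was Lpl, lipoprotein lipase, by 1.67 (SE 0.4, adjusted p = 0.0232), named after its value was seen. Macrophages express both Cd36 and Lpl, and the part of the higher macrophage signal in these values was not tested.

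In KO against WT on ND, where 1.38% of all genes rose, 5 of the 10 rose and none fell (median 0.9): Cidec, Mogat1, Cd36, Plin4 and Cidea. Cidec, a lipid droplet protein, read 6.85, 5.87 and 5.3 in KO ND, against 2.48, 2.11 and 2.93 in WT ND, and rose by 3.50 (SE 0.63, adjusted p = 0.0037). Its arrays lay apart by several log2 units, whereas those of Pparg itself lay apart by less and did not pass. HFD against ND in WT, where 1.32% of all genes changed, raised 3 of 10, Mogat1 by 2.26 (SE 0.35, adjusted p = 0.00178), Cidec by 2.90 and Cd36 by 1.15.

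Ppara, the receptor of fasting and fat oxidation, was lowest in TG livers on ND. It read 7.07, 6.57, 7.11 and 7.25 in TG HFD and 6.43, 6.33 and 6.1 in TG ND. In KO livers it read 7.21, 7.17 and 7.24 on HFD and 7.02, 7.15 and 7.21 on ND. WT livers had 6.97, 7.04 and 7.58 on HFD and 6.46, 6.48 and 7.09 on ND. The diets overlapped in KO, whereas the TG ND arrays lay below all other arrays. KO exceeded TG on ND by 0.84 (SE 0.19, adjusted p = 0.0163), lost without TG ND replicate 3 (adjusted p = 0.0829), KO ND replicate 2 (0.0616) or KO ND replicate 3 (0.0645). HFD against ND gave 0.08 in KO, 0.72 in TG and 0.52 in WT, none of which passed (adjusted p = 0.944, 0.0784 and 0.28). TG ND also had the lowest mean clock score, and the KO against TG difference on ND was 0.40 and did not pass once that score was in the model (adjusted p = 0.977). That model cannot tell the score from the group, so nothing is concluded from it.

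Of 20 PPAR alpha targets 17 were measured, and 5 of them fell and none rose in TG against WT on HFD, with a median of −0.71: Vnn1, Acot4, Acot3, Cyp4a14 and Aldh3a2. In that comparison 1.88% of all genes fell. Aldh3a2 was lowest on TG HFD replicate 2, at 6.05, against 7.81, 8.04 and 8.26 on the other TG HFD arrays. Vnn1, a pantetheinase, read 3.66, 2.19, 5.54 and 6.63 in TG HFD, against 8.82, 7.83 and 8.92 in WT HFD, and fell by 4.02 (SE 0.69, adjusted p = 0.00269). The acyl-CoA thioesterase Acot4 fell by 1.90 (SE 0.36, adjusted p = 0.00525). Its relative Acot3 fell by 2.56 (SE 0.48, adjusted p = 0.00528). Ppara itself differed by less than the spread between arrays in that comparison, 7.07, 6.57, 7.11 and 7.25 in TG HFD against 6.97, 7.04 and 7.58 in WT HFD. HFD against ND raised 4 of the 17 in WT, Acot3 by 3.05 (SE 0.52, adjusted p = 0.00354), Acot4, Cpt1a and Fgf21, and lowered 2 in KO, Acot1 by 2.16 and Angptl4 by 1.51. That diet comparison changed 1.32% of all genes in WT and 0.803% in KO.

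The third receptor of the family, Ppard, which is expressed in most tissues, had group means between 3.4 in KO HFD and 4.38 in TG ND and did not pass any comparison.

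**Figure D4:**
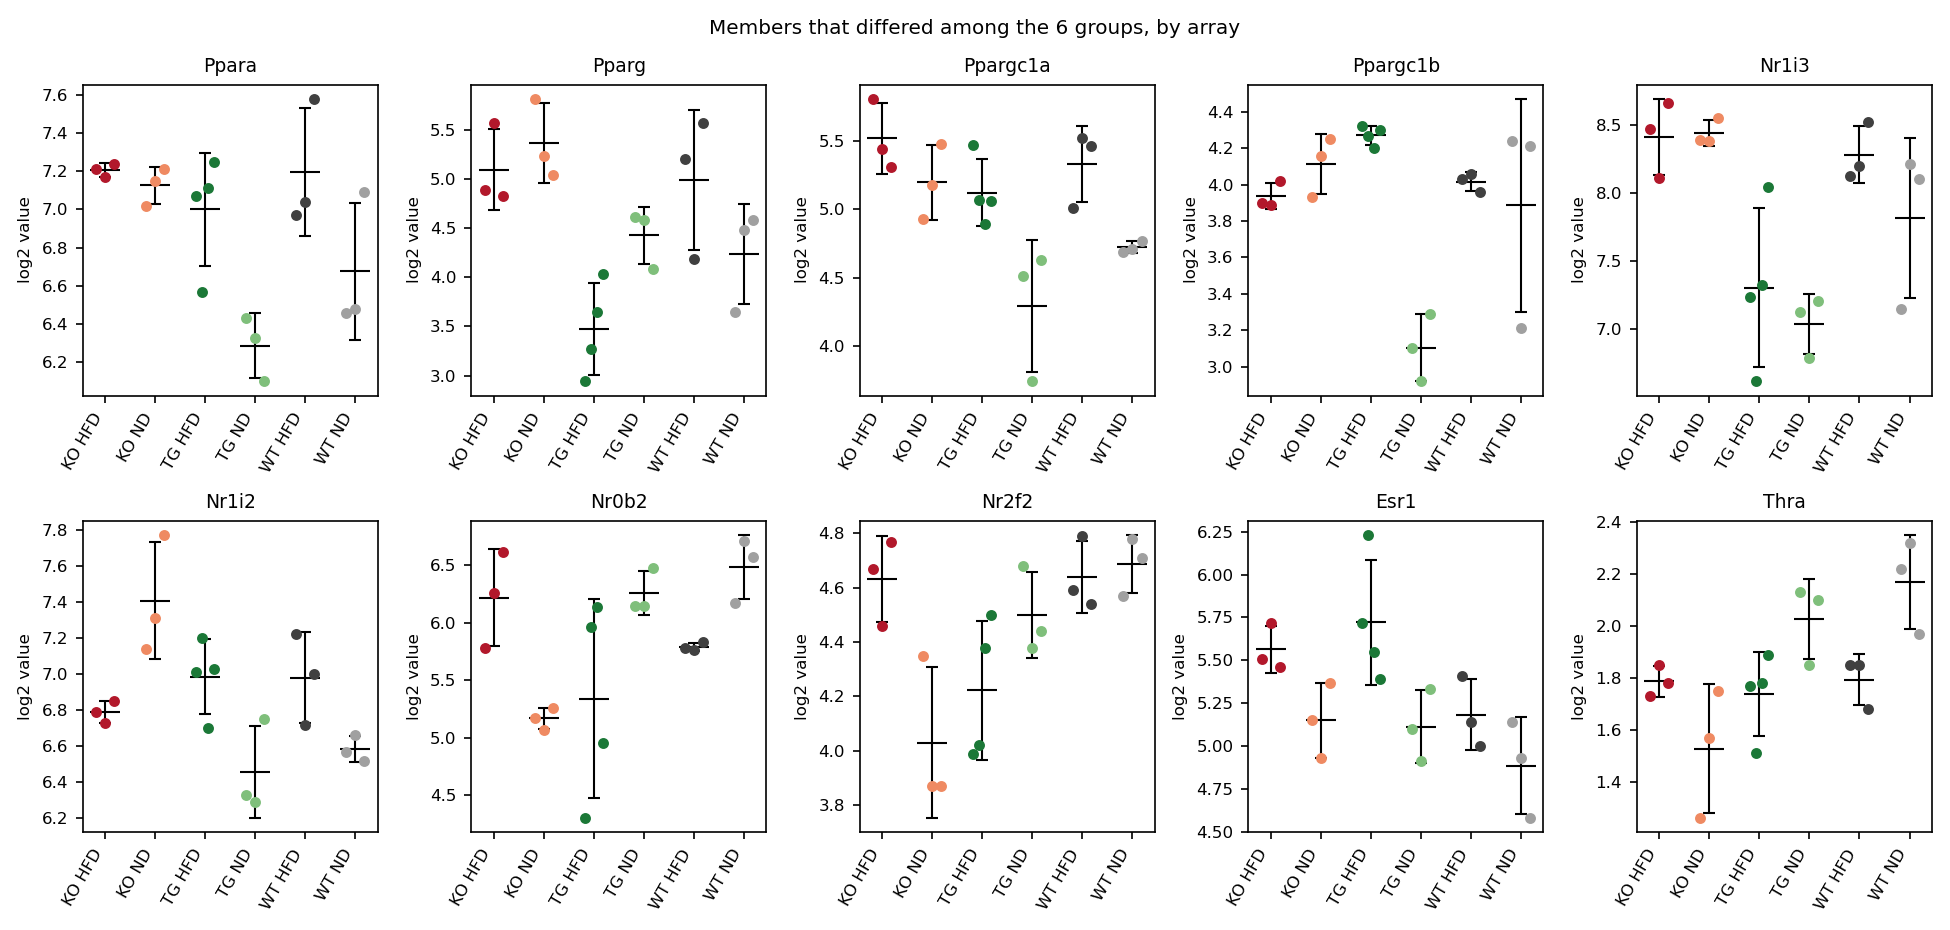
Log2 value on each array of the 10 members that differed among the 6 groups, by group, with group mean and SD as bars and a separate vertical scale for each gene. Pparg is lowest in TG HFD, Ppargc1b in TG ND, and Nr0b2, Nr2f2 and Thra have their lowest group mean in KO ND.

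The PGC-1 coactivators, which receptors recruit to switch on mitochondrial and gluconeogenic genes, were the members that changed in a comparison of diets. Ppargc1b read 4.32, 4.27, 4.2 and 4.3 in TG HFD, against 3.1, 2.92 and 3.29 in TG ND. These groups were far apart and each was tight, and the rise of 1.17 (SE 0.18, 95% interval 0.78 to 1.55, adjusted p = 0.00277), 2.25-fold, passed without any single array (1.08 to 1.26). In KO it read 3.9, 3.89 and 4.02 on HFD and 3.93, 4.16 and 4.25 on ND. In WT it read 4.03, 4.06 and 3.96 on HFD and 4.24, 3.21 and 4.21 on ND. WT ND replicate 2 alone was low and close to TG ND, and that array also had the lowest clock score, −1.66, of the 19. KO exceeded TG on ND by 1.01 (SE 0.2, adjusted p = 0.00496), and TG against WT on ND gave −0.78 (adjusted p = 0.0578). Once the score was in the model the differences changed sign, to −0.21 for HFD against ND in TG (SE 0.35) and −0.29 for KO against TG on ND (SE 0.33), and neither passed. These adjusted values rest on the spread of the score within groups, which was widest in WT ND (SD 0.93). They cannot tell the score from the group. The difference of the diet effects in TG and WT was 1.04 (adjusted p = 0.178).

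Ppargc1a read 5.81, 5.44 and 5.31 in KO HFD and 4.93, 5.18 and 5.48 in KO ND. In TG it read 5.47, 5.07, 4.89 and 5.06 on HFD and 4.51, 3.74 and 4.63 on ND, and in WT 5.01, 5.52 and 5.46 on HFD and 4.69, 4.71 and 4.77 on ND. The HFD arrays lay above the ND arrays in TG and in WT and overlapped them in KO. As the mean of the 3 genotypes it rose by 0.58 on HFD (SE 0.12, adjusted p = 0.0191), and passed without any single array. HFD against ND within a genotype gave 0.83 in TG and 0.60 in WT, which did not pass (adjusted p = 0.0698 and 0.269). KO exceeded TG on ND by 0.90 (SE 0.22, adjusted p = 0.0224), a call lost without TG ND replicate 2 (adjusted p = 0.134), KO ND replicate 2 (0.0711) or KO ND replicate 3 (0.113). The mean diet effect and this difference did not pass once the clock score was in the model (adjusted p = 1 and 0.89).

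Among 3 other coregulators measured, the steroid receptor coactivators Ncoa1 and Ncoa2 and the corepressor Nrip1 had group means within 0.26, 0.26 and 0.36 of each other and passed no comparison. In a wider list of 24 coregulators, 23 measured, Lpin1 was the gene that passed, a phosphatidate phosphatase that also works with PGC-1 alpha. It read 9.59, 10.52 and 10.3 in KO ND, against 5.61, 5.96 and 5.78 in WT ND, and rose by 4.35 (SE 0.48, adjusted p = 3.3e-05). The other 22 did not pass in KO against WT on ND, and the median of the list was −0.02.

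**Figure D5:**
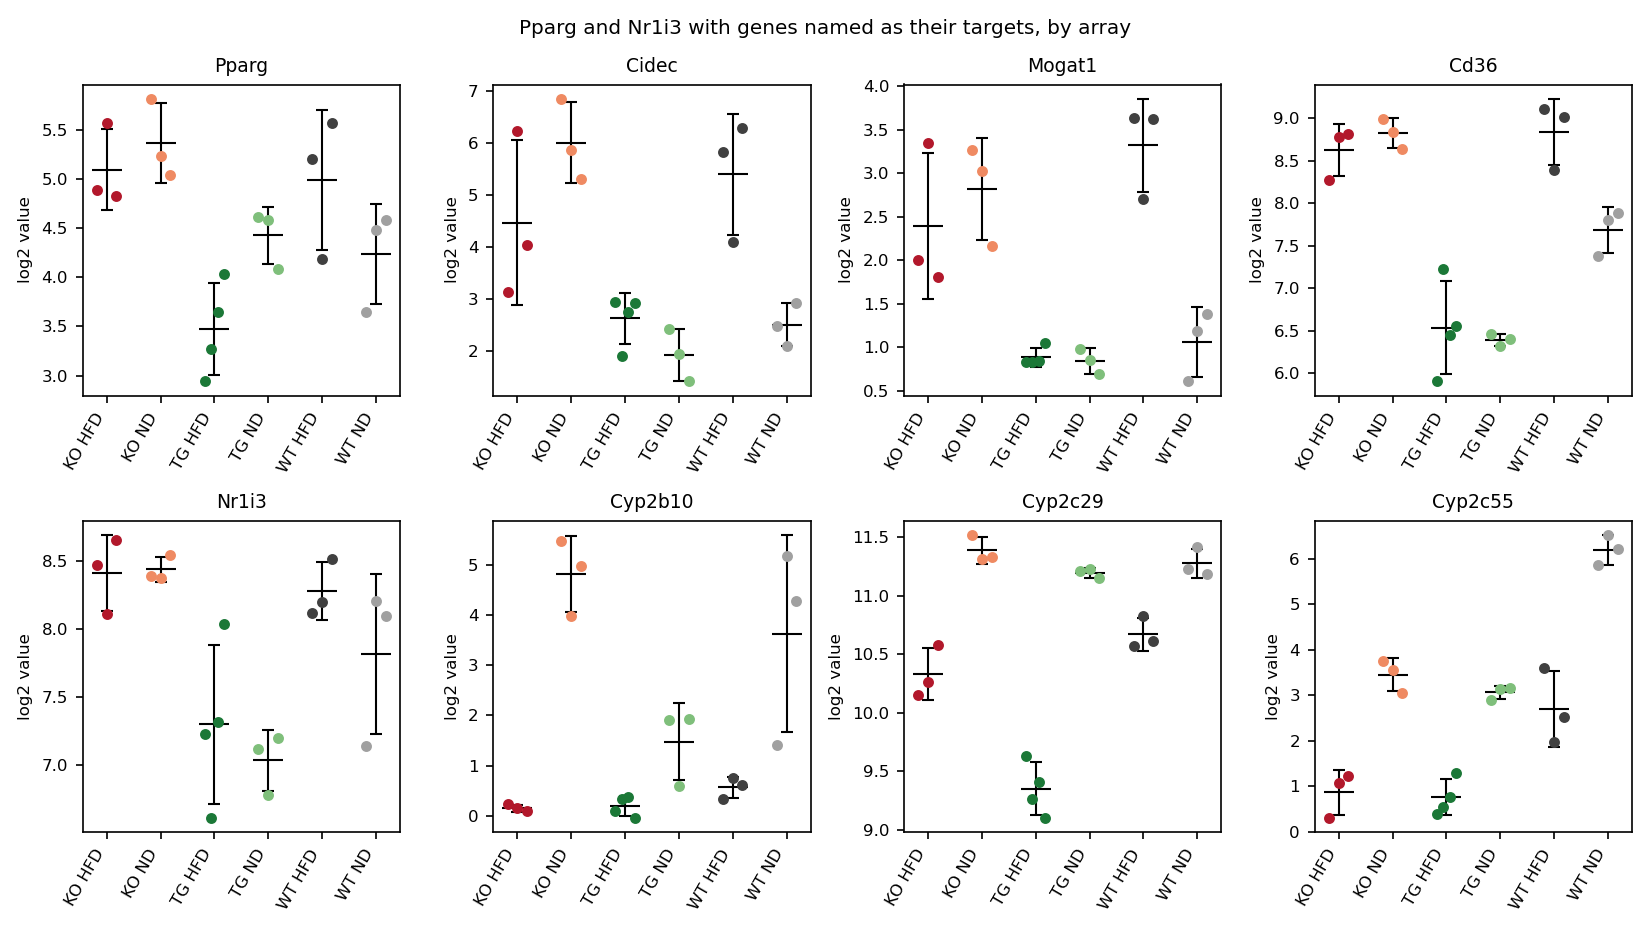
Log2 values of Pparg and Nr1i3 and of known target genes of these receptors on each array, by group, with group mean and SD as bars and a vertical scale of its own for each gene. Cidec is high in KO ND and WT HFD, and Cyp2b10 is near 0 on all HFD arrays.

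Nr1i3 (CAR), which senses drugs and foreign chemicals, had its lowest group means in TG livers. It read 7.23, 6.61, 7.32 and 8.04 in TG HFD and 7.12, 6.78 and 7.2 in TG ND. In KO it read 8.47, 8.11 and 8.66 on HFD and 8.39, 8.38 and 8.55 on ND, so that every KO array lay above every TG array. In WT it read 8.12, 8.2 and 8.52 on HFD and 7.14, 8.21 and 8.1 on ND. WT ND replicate 1 lay within the TG range, and the other WT arrays above it. KO exceeded TG by 1.41 on ND (SE 0.29, adjusted p = 0.00827) and by 1.12 on HFD (SE 0.27, adjusted p = 0.0375). The difference on ND passed without any single array, and that on HFD passed without TG HFD replicate 4 but was lost without any other of its 7 arrays (adjusted p from 0.0572 without TG HFD replicate 3 to 0.157 without KO HFD replicate 3). With the clock score in the model neither passed (adjusted p = 0.793 on ND and 0.0617 on HFD). TG against WT gave −0.98 on HFD (adjusted p = 0.0559) and −0.79 on ND (adjusted p = 0.303).

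The promoter window of Nr1i3 holds CACGTG, the E-box that clock factors among others bind, in capitals below, at chr1:171213720-171213969 (GRCm38.p6, + strand).
Nr1i3: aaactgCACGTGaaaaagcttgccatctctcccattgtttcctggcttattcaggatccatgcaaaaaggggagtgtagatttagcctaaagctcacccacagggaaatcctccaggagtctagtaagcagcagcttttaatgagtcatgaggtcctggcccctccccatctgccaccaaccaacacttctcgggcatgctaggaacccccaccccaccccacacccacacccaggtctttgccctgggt
The E-box, which reads the same on both strands, begins 244 bases before the start, and 6.02% of the 32851 windows hold one. The D-box TTATGTAA, which clock output factors bind, was in 0.819% of all windows and in none of the 11 windows of differing members.

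Nr1i2 (PXR), which senses drugs and bile acids, was highest in KO livers on ND. It read 7.14, 7.31 and 7.77 in KO ND, against 6.57, 6.66 and 6.52 in WT ND, with no overlap. It rose by 0.83 (SE 0.17, 95% interval 0.46 to 1.19, adjusted p = 0.0114), 1.77-fold, lost without KO ND replicate 3 (adjusted p = 0.0678). TG ND arrays read 6.33, 6.29 and 6.75, and KO exceeded them by 0.95 (SE 0.17, adjusted p = 0.00311), also without any single array. On HFD the genotypes overlapped, with 6.79, 6.73 and 6.85 in KO, 7.01, 7.2, 6.7 and 7.03 in TG and 7.22, 6.72 and 7 in WT. HFD against ND gave −0.62 in KO and did not pass (adjusted p = 0.112), and its difference from that in WT was −1.02 (SE 0.24, adjusted p = 0.0596). The clock scores of KO ND did not overlap those of WT ND or TG ND, so a model with the score cannot tell it from the group. In that model neither ND call was kept (adjusted p = 0.694 against WT and 0.793 against TG), and nothing is concluded from this.

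Of 17 listed targets of CAR and PXR 15 were measured. On HFD against ND 4 fell and 1 rose in KO, 5 fell and none rose in TG, and 4 fell and 1 rose in WT. The shares of all genes that changed were 0.803% in KO, 0.906% in TG and 1.32% in WT. Cyp2c55, a cytochrome P450, fell in all 3 genotypes, by 3.50 in WT (SE 0.34, adjusted p = 1.59e-05), and was dim in KO HFD and TG HFD, where the size is limited by background. Cyp2b10, the standard target of CAR, read 0.23, 0.15 and 0.09 in KO HFD, against 5.48, 3.99 and 4.98 in KO ND, and fell. The KO HFD readings lie below the median of their arrays, so that the size of the fall is not given. The listed gene that rose in KO was Cyp2b13, by 3.38 (SE 0.52, adjusted p = 0.00663), from dim readings in KO ND. Cyp2b9 read 8.63, 9.59 and 8.99 in KO HFD, against 7.18, 4.88 and 5.79 in KO ND, and did not pass. These Cyp2b genes thus went the other way from Cyp2b10. Nr1i3 itself averaged 8.42 in KO HFD and 8.44 in KO ND. The clock scores of these groups averaged 2.18 and 1.67 and did not overlap (1.97 to 2.32 in KO HFD, 1.46 to 1.84 in KO ND). The part of receptor level or clock score in the fall of Cyp2b10 was not tested. In TG against WT on HFD, where 1.88% of all genes fell, 5 of 15 fell and none rose: Cyp2c55, Abcc3, Gstm3, Cyp2c29 by 1.32 (SE 0.13, adjusted p = 2.39e-05) and Cyp2c37 by 1.88 (SE 0.26, adjusted p = 0.000476). Abcc3 was lowest on TG HFD replicate 2, at 5.37, against 6.81, 6.43 and 7.24 on the other TG HFD arrays. In KO against WT on ND, Cyp2c37 fell by 2.57 and Cyp2c55 by 2.74, while Alas1, the first enzyme of haem synthesis, rose by 2.93. Nr1i2 rose in that comparison, and 2 of the 15 rose, Alas1 and the drug exporter Abcb1a, while the 2 named P450 genes fell. There 1.38% of all genes rose and 1.6% fell. The same 2 P450 genes also fell in TG against WT on ND, where none of the 15 rose and 1.3% of all genes changed. Their differences there were −3.13 for Cyp2c55 (adjusted p = 3.53e-05) and −2.35 for Cyp2c37 (adjusted p = 0.000125). Nr1i2 did not pass in TG against WT on ND (−0.12, adjusted p = 0.911). The falls of these P450 genes from WT ND were thus shared by KO and TG.

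Nr0b2 (SHP), a receptor without a DNA-binding domain that FXR induces and that represses bile acid synthesis, was lowest in KO livers on ND. It read 5.17, 5.07 and 5.26 in KO ND, against 6.17, 6.71 and 6.57 in WT ND. The arrays did not overlap, and it fell by 1.32 (SE 0.34, 95% interval −2.03 to −0.61, adjusted p = 0.0411). That adjusted p lay close to the threshold and passed it with none of the 6 arrays left out in turn (from 0.0568 without WT ND replicate 1 to 0.153 without WT ND replicate 2), while the difference stayed between −1.48 and −1.21. With the clock score in the model it did not pass (−1.50, adjusted p = 0.742). On HFD it read 5.78, 6.26 and 6.62 in KO, 4.3, 5.96, 6.14 and 4.95 in TG, and 5.78, 5.76 and 5.83 in WT. The TG HFD arrays spread widely, while those of TG ND read 6.15, 6.15 and 6.48. HFD against ND gave 1.06 in KO and −0.92 in TG, neither of which passed (adjusted p = 0.18 and 0.25). The diet effect in KO minus that in WT was 1.75 (SE 0.48, adjusted p = 0.108).

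The window of Nr0b2, at chr4:133553126-133553375 (GRCm38.p6, + strand), is the other one among the 11 that holds an E-box, in capitals.
Nr0b2: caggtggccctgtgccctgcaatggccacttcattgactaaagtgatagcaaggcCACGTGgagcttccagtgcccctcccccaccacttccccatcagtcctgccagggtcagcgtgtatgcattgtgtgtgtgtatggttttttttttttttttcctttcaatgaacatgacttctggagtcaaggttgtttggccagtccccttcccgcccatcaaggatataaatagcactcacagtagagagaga
The E-box begins 195 bases before the start. TCAAGGTCA, or TGACCTTGA on the other strand, the extended hexamer of LRH-1 (Nr5a2), a known activator of this gene, was in 0.387% of all windows and in none of the 11. That says only that these letters are absent from these windows.

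The other bile acid and sterol receptors passed no comparison. Nr1h4 (FXR), the bile acid receptor, read 8.02, 7.57 and 7.93 in KO HFD, 8.13, 7.88 and 8.06 in KO ND, 7.77, 7.76, 7.88 and 7.83 in TG HFD and 7.67, 7.68 and 7.45 in TG ND. The WT arrays had 7.7, 7.73 and 8.07 on HFD and 7.21, 7.78 and 7.86 on ND. Its largest difference was 0.42 in KO against TG on ND (95% interval 0.08 to 0.77, adjusted p = 0.193), and KO against WT on ND gave 0.41 (adjusted p = 0.252). Nr1h3 (LXR alpha), the oxysterol receptor, read between 5.9 and 6.13 on all 19 arrays, and its largest difference was 0.15 for HFD against ND in WT (95% interval −0.04 to 0.34, adjusted p = 0.604). Nr5a2 had group means between 7.29 in KO ND and 7.73 in WT HFD, and its largest difference was −0.39 for KO against WT on ND (adjusted p = 0.206).

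Of 9 measured FXR targets, 2 fell and none rose in KO against WT on ND, where 1.6% of all genes fell. Abcb11, the bile salt export pump, read 9.01, 9.07 and 9.32 in KO ND, against 9.87, 9.88 and 10 in WT ND, and fell by 0.78 (SE 0.13, adjusted p = 0.00184), and Osgin1 fell by 1.26 (SE 0.32, adjusted p = 0.0415). Nr0b2, also a target of FXR, fell in the same comparison, whereas Nr1h4 did not pass. Cyp7a1, the rate-limiting enzyme of bile acid synthesis, which SHP represses and which in mice LXR induces, read 8.66, 9.02 and 7.94 in KO ND, against 6.88, 6.95 and 6.7 in WT ND, and rose by 1.70 (SE 0.39, adjusted p = 0.0213). In TG ND Cyp7a1 read 8.68, 8.47 and 8, also above every WT ND array, though that difference did not pass. HFD against ND in WT raised it by 1.86 (SE 0.39, adjusted p = 0.0211). Nr0b2 passed in neither of these comparisons (adjusted p = 0.92 and 0.46). Cyp7a1 was the gene that passed among 11 LXR targets in KO against WT on ND. Of these targets Abcg1, a sterol exporter also made by macrophages, rose in TG against WT on ND by 1.63 (SE 0.22, adjusted p = 0.000353) and on HFD by 0.88 (SE 0.2, adjusted p = 0.0194), alongside the macrophage markers.

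Among steroid receptors, Esr1, the main estrogen receptor of the liver, differed among the 6 groups (adjusted p = 0.038) without passing any single comparison. It read 5.51, 5.72 and 5.46 in KO HFD and 5.15, 4.93 and 5.37 in KO ND. In TG it read 5.72, 6.23, 5.55 and 5.39 on HFD and 5.1, 4.91 and 5.33 on ND, and in WT 5.41, 5.14 and 5 on HFD and 5.14, 4.93 and 4.58 on ND. HFD arrays lay above the ND arrays of their own genotype in KO and TG, and overlapped them in WT. The diet difference as the mean of the 3 genotypes was 0.44 (SE 0.11, adjusted p = 0.0556).

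Nr3c1, the glucocorticoid receptor, read 6.66, 6.56 and 6.62 in KO HFD, 6.56, 6.26 and 6.63 in KO ND, 6.84, 6.53, 6.68 and 6.72 in TG HFD and 6.56, 6.46 and 6.56 in TG ND. In WT it read 6.99, 6.72 and 6.39 on HFD and 6.68, 6.5 and 6.35 on ND, and the groups overlapped. Its largest difference was 0.19 (HFD against ND in WT, 95% interval −0.11 to 0.5, adjusted p = 0.699). Of its 11 measured targets 6 rose and none fell in KO against WT on ND, where 1.38% of all genes rose, with a median of 1.08. Fkbp5, a chaperone of the receptor, read 5.56, 6.23 and 6.48 in KO ND, against 3.23, 3.43 and 3.35 in WT ND, and rose by 2.75 (SE 0.36, adjusted p = 0.000247). Per1, also a clock gene and part of the clock score, rose by 2.55 (SE 0.38, adjusted p = 0.000799), and Pck1, the gluconeogenic enzyme, by 0.91 (SE 0.17, adjusted p = 0.00598). The rest were Mt2, by 3.21, Mt1, by 2.32, and Dusp1, by 1.08. In TG against WT on ND, where 1.3% of all genes changed, 3 of 11 rose and none fell, Mt2 by 4.75, Mt1 by 3.51 and Lcn2 by 3.73. On HFD Mt2 and Mt1 rose in TG against WT too, by 4.17 and 3.14. HFD against ND in KO, where 0.803% of all genes changed, lowered 3 of 11, Fkbp5 by 2.11, Dusp1 by 1.17 and Pck1 by 1.08.

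The mineralocorticoid receptor Nr3c2, the one member with more than 1 probe set of its own, read 4.18, 3.82 and 4.04 in KO ND, against 4.5, 4.5 and 4.47 in WT ND. These arrays did not overlap, and the difference of −0.48 (SE 0.13) did not pass (adjusted p = 0.0561). The estrogen-related receptors Esrra and Esrrg, orphan partners of PGC-1, had group means between 4.02 and 4.53 and between 2.07 and 2.46.

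Thra, the thyroid hormone receptor that dominates in heart and bone, was dim in these livers and fell in KO against WT on ND. It read 1.26, 1.57 and 1.75 in KO ND, against 2.22, 2.32 and 1.97 in WT ND. The groups lay apart, and the difference was −0.65 (SE 0.14, 95% interval −0.94 to −0.35, adjusted p = 0.015), lost without KO ND replicate 1 (0.0797), WT ND replicate 1 (0.0563) or WT ND replicate 2 (0.0789). With the clock score in the model it did not pass (−0.51, adjusted p = 0.825). Its other group means lay between these, with 1.73, 1.85 and 1.78 in KO HFD, 1.77, 1.51, 1.78 and 1.89 in TG HFD, 2.13, 1.85 and 2.1 in TG ND and 1.85, 1.85 and 1.68 in WT HFD. Thrb, the thyroid hormone receptor that dominates in liver, read 6.02, 5.9 and 6.01 in KO HFD, 6.11, 6.14 and 6.34 in KO ND, 6.33, 6.47, 6.29 and 6.77 in TG HFD and 5.84, 6.34 and 6.04 in TG ND. Readings in WT were 6.08, 6.13 and 6.05 on HFD and 6.29, 6.41 and 5.97 on ND. On HFD every KO array lay below every TG array, by a mean of 0.49 (difference −0.49, SE 0.14), which did not pass (adjusted p = 0.0771). Thrsp, a lipogenic target of the thyroid hormone receptor, rose in KO against WT on ND by 3.03 (SE 0.3, adjusted p = 1.02e-05) and was the gene of 7 in its list that passed there.

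Rxra, the common heterodimer partner, read 7.77, 7.82 and 8.06 in KO HFD, 7.62, 7.68 and 7.71 in KO ND, 7.89, 7.72, 7.9 and 7.73 in TG HFD and 7.83, 7.96 and 7.97 in TG ND. WT livers had 7.89, 7.96 and 7.82 on HFD and 7.57, 7.83 and 7.77 on ND. Its largest difference was −0.27, the diet effect in TG minus that in WT (95% interval −0.59 to 0.04, adjusted p = 0.706). Rxrb and Rara passed no comparison, with largest differences of −0.53 (HFD against ND in TG, where TG HFD replicate 3 had 3.47 and the other TG HFD arrays 4.47 to 4.62) and 0.46 (the diet effect in TG minus that in WT), and Rxrg, Rarb, Rarg and Vdr were dim and passed none. Of 4 measured targets of retinoic acid receptors, Dhrs3, a retinal reductase, fell in KO against WT on ND by 0.84 (SE 0.17, adjusted p = 0.0091).

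Among the orphan receptors, Nr2f2 (COUP-TFII), which represses genes by competing for receptor sites and which endothelial and stromal cells also express, fell in KO against WT on ND. It read 4.35, 3.87 and 3.87 in KO ND, against 4.57, 4.78 and 4.71 in WT ND. The difference was −0.66 (SE 0.16, 95% interval −1 to −0.32, adjusted p = 0.0316), which passed without KO ND replicate 1 but was lost without any other of the 6 arrays (adjusted p from 0.0525 without WT ND replicate 1 to 0.146 without KO ND replicate 2). In the other groups it read 4.67, 4.46 and 4.77 in KO HFD, 3.99, 4.02, 4.38 and 4.5 in TG HFD, 4.68, 4.38 and 4.44 in TG ND and 4.59, 4.79 and 4.54 in WT HFD. With the clock score in the model it did not pass (−0.56, adjusted p = 0.835). Markers of liver endothelium averaged 5.79 ± 0.1 in KO ND and 5.82 ± 0.12 in WT ND, and those of stellate cells and fibroblasts 4.59 ± 0.24 in KO ND and 4.56 ± 0.16 in WT ND (SD, n = 3 each). KO HFD lay above KO ND on every array by a mean of 0.61, which did not pass (adjusted p = 0.0965). Stellate cell and fibroblast markers moved with it, at 5.16 ± 0.28 in KO HFD (SD, n = 3), with 1 of 7 (Reln) passing, 5 of 7 at an unadjusted p under 0.05 and a median difference of 0.59 from KO ND, and endothelial markers averaged 6.03 ± 0.27 in KO HFD (SD, n = 3). Their part in that difference was not tested.

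Hnf4a, the receptor of hepatocyte identity, read 8.55, 8.62 and 8.66 in KO HFD, 8.78, 8.9 and 9.14 in KO ND, 9.07, 8.88, 8.74 and 8.81 in TG HFD and 8.88, 9.11 and 9.06 in TG ND. The WT arrays had 8.63, 8.87 and 8.88 on HFD and 8.95, 9.08 and 8.91 on ND. In KO every HFD array lay below every ND array, by a difference of −0.34 (SE 0.12, 95% interval −0.6 to −0.08) that did not pass (adjusted p = 0.276). The orphans Nr2c1, Nr2c2, Nr2f6 and Nr6a1 passed no comparison, with largest differences of 0.3, 0.28, −0.41 and −0.47. The immediate-early receptors Nr4a1, Nr4a2 and Nr4a3 were dim, as were Nr2f1 and Hnf4g. Nr4a1 read 2.74, 1.1 and 1.32 in KO HFD, against 0.59, 0.91 and 0.48 in KO ND, a difference of 1.06 (SE 0.29) that did not pass (adjusted p = 0.111) and in which KO HFD replicate 1 was far above the rest.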

How the data were processed

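RNA from whole liver was labelled with biotin and hybridised to 1 Affymetrix array per mouse, 19 in all. The deposited values are on a log scale taken here as log2, a base inferred from their range, and the authors had normalized them between arrays. Per the submitters' processing notes the tools were affy, RMA and limma, whose versions and roles are not given in the sources used here. Array medians lay between 0.9828 and 1.075, and 1.81% of the values were below 0. The number of arrays limits the precision. In the platform annotation 23521 of 41345 probe sets had 1 gene symbol, 1814 several and 16010 none. The probe set of highest mean stood for each gene, which left 22180 genes, with no filter on dim ones. The 39 measured members matched RefSeq (GRCm38.p6) by Entrez identifier, all under the same symbol, and promoter windows are from RefSeq too. Groups were read from the sample titles, whose animal numbers follow diet and mostly genotype, so that cohort cannot be told apart from either. All arrays were fitted as 6 group means with limma 3.58.1 in R 4.3.3, which left 13 residual degrees of freedom beside 4.76 of the prior. The tests are two-sided, and p-values were adjusted within each comparison over all genes. The procedure was tested on simulated data. Values per array are given for members that changed in at least 1 of the 9 comparisons planned and for a fixed set of major receptors with Ppargc1a. Nr3c2, Nr4a1 and per-array values of other genes were chosen after their values were seen. From each target list up to 3 genes of smallest p are named per comparison, others after their values were seen to complete counts of at most 5, and Cyp7a1 is counted as an LXR target. The members and lists were chosen with earlier results of these data known, so their counts are not independent evidence. Alternatives were a filter on dim genes, the mean of a gene's probe sets, quantile normalization, another variance model, the clock score as a covariate, fits of the compared arrays alone, and leaving out arrays.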

Additional observations from a re-analysis of the deposited data

Results flagged for a closer look

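Within the 4 TG HFD arrays, the 1 group large enough to be looked at in this way, 39 members were checked for an array far from the others, and 2 had one, where chance alone marks about 1 in 20. Hnf4g, an HNF4 paralogue, read 0.29 on TG HFD replicate 2, against 0.51 to 0.53 on the other TG HFD arrays, a gap of 0.928 of the whole range. Both levels are dim, and the gap is small on the log2 scale. Rxrb, a heterodimer partner, read 3.47 on TG HFD replicate 3, against 4.47 to 4.62 on the others, a gap of 0.862 of the range. The gap lies behind the SD of 0.53 for Rxrb in that group, whose mean of 4.27 was the lowest of the 6 groups.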

How the results depend on the processing

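Numbers of members called were recomputed under each alternative. The difference among the groups, 10 members, gave 2 with the clock score as a covariate and 6 to 9 without 1 array. With that covariate HFD against ND in TG, KO against WT on ND, KO against TG on ND and the mean diet effect each gave 0 (against 1, 4, 5 and 1), and KO against TG on HFD gave 1 (against 2). Ppargc1b then reversed to −0.21, −0.29 and −0.56 in HFD against ND in TG, KO against TG on ND and the mean diet effect. Of the clock score's variance 92.9% lies between the groups. Without dim genes, 9657 were tested, and HFD against ND in KO and TG gave 1 and 3, TG against WT 1 on ND and 2 on HFD, the KO interaction 1 and the mean diet effect 3. Quantile normalization gave 2 for HFD against ND in TG and 3 for the mean diet effect. The trended, robust variance gave 3 for both, and 1 for the KO interaction. With the compared arrays alone, KO against WT on ND gave 2, TG against WT on HFD 0, KO against TG on HFD 1 and the KO interaction 1. Without WT HFD replicate 1 and TG HFD replicate 2 together, added after seeing the data, HFD against ND in TG gave 2, the mean diet effect 2, TG against WT on HFD 0 and KO against TG on HFD 1. Without 1 array the numbers were 1 to 2 for HFD against ND in TG and for KO against WT on ND, 0 to 1 for HFD against ND in KO, 3 to 6 for KO against TG on ND, 0 to 2 for KO against TG and for TG against WT on HFD, 0 to 1 for TG against WT on ND and both interactions, and 1 to 2 for the mean diet effect. HFD against ND in WT and KO against WT on HFD stayed at 0. The cause of these changes was not tested. No paired analysis was possible because animal numbers in the titles differ throughout, so that the groups share none.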

Other observations

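Arrays of 1 group differed together in some receptors and their targets, given here as values chosen after they were seen. In WT HFD, replicate 2 had the lowest Pparg, 4.19, and also the lowest Cidec at 4.09, Mogat1 at 2.7, Cd36 at 8.39 and Acot3 at 3.43. The listed PPAR gamma targets Fabp4 and Lpl went the other way, highest on that array at 5.39 and 3.74. In KO HFD, replicate 2 had the highest Pparg, 5.57, with Cidec at 6.22 and Mogat1 at 3.35, against Cidec at 3.14 and 4.04 and Mogat1 at 2.01 and 1.81 on the other KO HFD arrays. Cd36 and Plin4 were instead highest on KO HFD replicate 3, at 8.82 and 5.31, against 8.78 and 4.9 on replicate 2. In KO ND, replicate 1 had the highest Pparg, 5.82, with the highest Cidec, 6.85, and Mogat1, 3.27. In TG HFD, where Pparg ran between 2.94 and 4.03, Cidec ran between 1.91 and 2.94 without that order.

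In WT ND, replicate 1 had the lowest Nr1i3, 7.14, and Cyp2b10 at 1.42, against Nr1i3 at 8.21 and 8.1 and Cyp2b10 at 5.18 and 4.28 on the other WT ND arrays. On HFD, Cyp2b10 ran between −0.04 and 0.75 on all 10 arrays, below the array medians of 0.9828 to 1.075. At background it could not vary with Nr1i3, so nothing is concluded from these HFD readings.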
